A study of Homo sapiens with 4 samples.

Results

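A set of 85 genes, of 17764 gene identifiers in the deposited peak lists, had eCLIP peaks for the zinc finger protein ZFR in both eCLIP libraries and no peak in either size-matched input. They were chosen by their numbers of listed peaks: at least 20 in eCLIP replicate 1, at least 3 in eCLIP replicate 2 and 0 in each input. These numbers are therefore a description of the choice and are not tested. All 4 libraries came from Flp-In T-REx-293 cells, a polyclonal line of human embryonic kidney origin with FLAG-ZFR integrated at the FRT site. Doxycycline (1 µg/mL, 48 to 72 h) induced the transgene, and ultraviolet light (400 mJ/cm2) joined protein to RNA. The eCLIP group held 2 libraries and the input group 2, numbered 1 and 2 in each. The labels give the inputs the same transgene and induction and set them apart by library type alone. Whether libraries 1 and 2 of a group stem from different cultures is not stated.

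In eCLIP, RNA fragments crosslinked to a protein are pulled down with it, trimmed and sequenced, so that read pileups mark where the protein touched RNA. The size-matched input is prepared from that stretch of the gel without any pulldown, and it measures which RNAs are abundant there. ZFR carries zinc fingers that bind double-stranded RNA and a DZF domain, through which such proteins pair with one another. It is known as a nuclear regulator of alternative splicing. Binding by nuclear splicing regulators often falls in introns, which make up most of the length of an unspliced transcript.

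The lists held 479308 and 41904 peaks for the eCLIP libraries and 63068 and 11204 for the inputs, so list length differed strongly within each group. Each line is a peak that the authors called in that library alone, with at least 3 reads and a p-value of at most 0.05. Weaker signal is not in the lists, and a gene listed at 0 can still have had reads. The lists hold identifiers without gene names, so genes are given by their hg19 position and strand, counted from base 1. Markers of the cell line and functional gene groups were for that reason not analysed here. Positions enclose a gene's eCLIP peaks and are not annotated gene ends.

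The 85 genes took 2677 peaks (0.559%) of eCLIP replicate 1, 402 peaks (0.959%) of eCLIP replicate 2 and 0 of both inputs. Their peaks held 14856 and 1752 reads in the eCLIP libraries. In eCLIP replicate 1 a gene had between 20 and 59 peaks, with a median of 29. In eCLIP replicate 2 it had between 3 and 13, with a median of 4.00. Most genes were thus near the lower limits: 46 had 20 to 29 peaks in eCLIP replicate 1, and 26 had exactly 3 in eCLIP replicate 2. Only 4 had at least 10 peaks in eCLIP replicate 2.

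**Figure D1:**
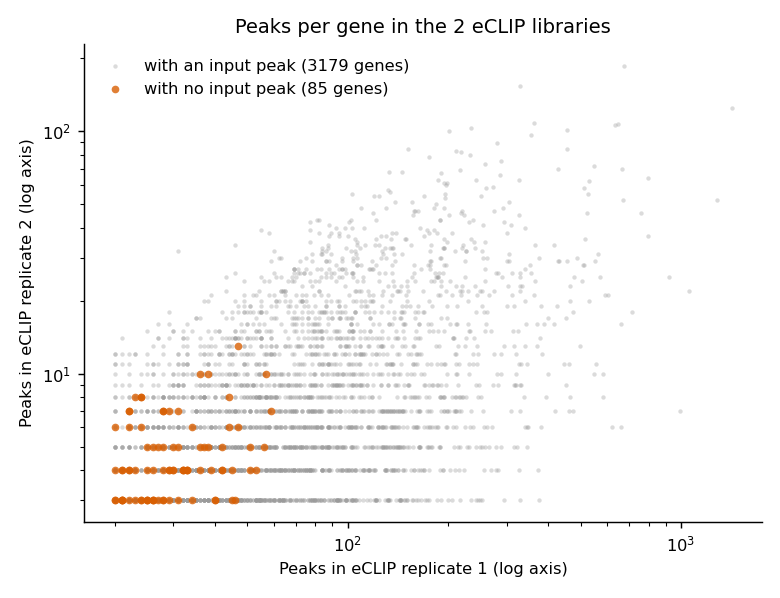
Peaks per gene in eCLIP replicate 1 (x axis, log) and eCLIP replicate 2 (y axis, log) for the 3264 genes that met both eCLIP limits. Orange points, the 85 genes with no input peak, sit at the lower left, with at most 59 and 13 peaks, while genes with an input peak (grey) extend far beyond.

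Genes without an input peak made up 85 of the 3264 genes that met both eCLIP limits, or 2.60%. A further 99 of those genes had 1 input peak, 189 had 2 and 2291 had 6 or more. The share without an input peak was largest where eCLIP replicate 1 had fewest peaks. It was 10.3% (95% Wilson interval 7.80 to 13.5) of the 447 genes with 20 to 29 peaks and 5.19% (3.42 to 7.80) of the 405 with 30 to 39. It was 2.72% (1.73 to 4.26) of the 661 with 40 to 59. None of the 778 genes with 60 to 99 peaks, nor of the 973 with 100 or more, lacked an input peak.

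List length alone gave fewer such genes than were listed. Given each gene's summed peaks over the 4 lists, spread by list length only, 16.9 genes would meet the rule, and the 85 were 5.02 times that number. The same calculation with eCLIP replicate 2 and input 1 exchanged gave a like ratio. There, 412 genes had at least 20 peaks in eCLIP replicate 1, at least 3 in input 1 and none in eCLIP replicate 2 or input 2. List length gave 89.7, so the ratio was 4.59. With input 2 in that place the count was 1 against 0.200. The excess over list length was therefore not particular to the eCLIP pair. These are descriptions of 4 lists, with no test. Every list bore on the count: with the condition on it dropped, 155 genes met the rule without eCLIP replicate 1, 214 without eCLIP replicate 2, 1131 without input 1 and 136 without input 2.

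**Figure D2:**
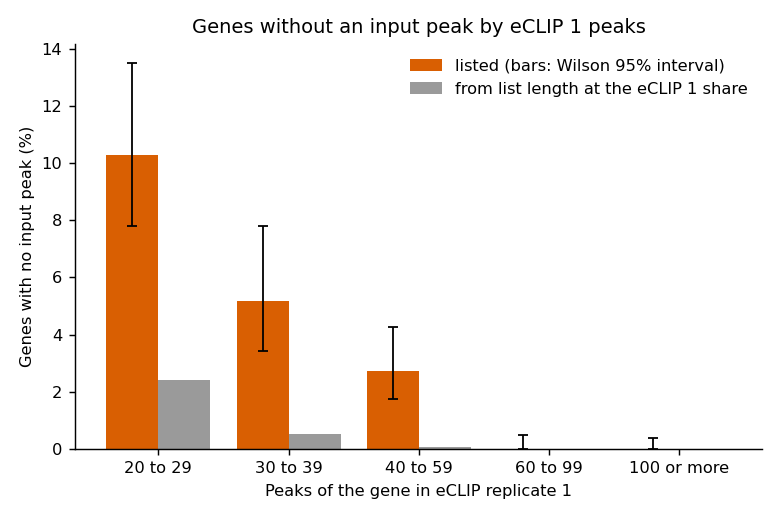
Share of genes with no input peak (y axis, percent) by the gene's peaks in eCLIP replicate 1 (x axis), among genes that met both eCLIP limits. Orange bars with Wilson 95% intervals fall from 10.3% to 0, and grey bars, the share expected if inputs followed the eCLIP 1 share of peaks, fall from 2.41% to nearly 0.

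Per gene, the input peaks to be expected were few. At its share of eCLIP replicate 1, a gene of the set would have had between 2.63 and 7.76 peaks in input 1 and between 0.468 and 1.38 in input 2. Over all 85 genes this came to 352 and 62.6 peaks. The rule itself set both inputs at 0, so the distance from these numbers is no result. At no more than 1.38 peaks expected per gene, input 2 was too short a list to show such a gene singly. In eCLIP replicate 2 the same calculation gave 234 peaks, and 402 were listed. The rule asked for at least 3 there, so the higher number follows in part from the choice.

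Other genes lay just outside each limit. With no input peak and at least 3 peaks in eCLIP replicate 2, 5 genes had 19 peaks in eCLIP replicate 1 and 4 had 20. With at least 20 peaks in eCLIP replicate 1 and no input peak, 54 genes had no peak in eCLIP replicate 2, 46 had 1, 29 had 2 and 26 had 3. Of the 99 genes with 1 input peak, 72 had it in input 1 and 27 in input 2.

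As shares of each library's peaks, the genes lay between 0.417 and 1.23 per 10000 in eCLIP replicate 1 and between 0.716 and 3.10 per 10000 in eCLIP replicate 2. By the choice of genes, all lay above the inputs, which were at 0. Over all 8914 genes with at least 10 summed peaks, 21.1% had both eCLIP shares above both input shares. In the limma fit of log2 shares over these genes, 0% passed in the higher direction, and 0% in the lower, at an adjusted p under 0.05. Before adjustment, limma gave p under 0.05 for 112 higher genes, 27 of the 85 among them, and for 62 lower genes. The adjusted p from limma was 0.995 for each of the 85 genes. The fitted difference of a gene at 0 in both inputs depends on the added pseudocount and is no size. The set's median was 3.19 with a pseudocount of 0.1, 1.39 with 0.5 and 0.49 with 2, beside 0.40, 0.16 and 0.05 over all genes tested. The rule used this contrast, so nothing is read from these values. With 2 libraries in each group, the smallest two-sided p of an exact permutation test is 0.33.

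The rule counted input peaks by identifier, so their positions were checked too. No input peak of any gene lay on the same strand inside the span of the 85 genes. On the opposite strand, 3 spans (3.53%, 1.21 to 9.87) held 11 input peaks. For comparison, 1318 genes had the same ranges of eCLIP peaks (20 to 59 and 3 to 13) and at least 1 input peak. Among these comparison genes, 98.8% (98.0 to 99.3) held a same-strand input peak in the span, so the 2 ways of counting nearly coincide. An opposite-strand input peak was held by 5.46% (4.36 to 6.82) of them. The minus-strand span chr17:16347665-16394340 held 4 opposite-strand peaks in input 1, 4 in input 2 and 57 in eCLIP replicate 1. The minus-strand span chr17:53029953-53040378 held 2 in input 1 and 11 in eCLIP replicate 1. In the plus-strand span chr7:100426850-100462928 there were 1 and 15.

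The nearest same-strand input peak, under any identifier, lay between 1048 bases and 835 kb from the span, with a median of 38.2 kb. It was within 10 kb for 20 of the 85 genes and beyond 100 kb for 15.

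Some peaks of the set were also listed under another identifier. This held for 363 peaks (13.6%) in eCLIP replicate 1 and 78 (19.4%) in eCLIP replicate 2, against 8.14% and 12.5% of all lines in those lists. Such peaks occurred in 19 of the 85 genes, and in 13 of these the other identifier had an input peak elsewhere. In 2 identifiers on the minus strand, both at chr19:18981952-19006884, all 28 and 7 eCLIP peaks were the same, so the 85 identifiers stand for 84 sets of peaks. With every such peak left out of all 4 lists, 76 genes met the rule and 71 of them were in the set.

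The genes lay on 21 chromosomes, most often on chromosome 19 with 16 genes, chromosome 17 with 10 and chromosome 16 with 9. For each of these alone, the intervals of the set and of the comparison genes met. Chromosome 19 held 18.8% (11.9 to 28.4) against 11.1% (9.49 to 12.9), chromosome 17 held 11.8% (6.52 to 20.3) against 7.44% (6.14 to 8.98), and chromosome 16 held 10.6% (5.67 to 18.9) against 6.98% (5.73 to 8.48). Together the 3 chromosomes held 41.2% (31.3 to 51.8) of the set, 25.5% (23.2 to 27.9) of the comparison genes and 18.4% (17.9 to 19) of all identifiers. These 3 were picked after their counts were seen. Chromosome 12 held 7 genes, chromosomes 3 and 14 held 6 each, and chromosome 2 held 1, or 1.18% against 4.93% of the comparison genes. No gene of the set lay on chromosome 18, 21 or Y or on mitochondrial DNA. The strands were even, with 44 genes (51.8%, 41.3 to 62.1) on the minus strand.

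**Figure D3:**
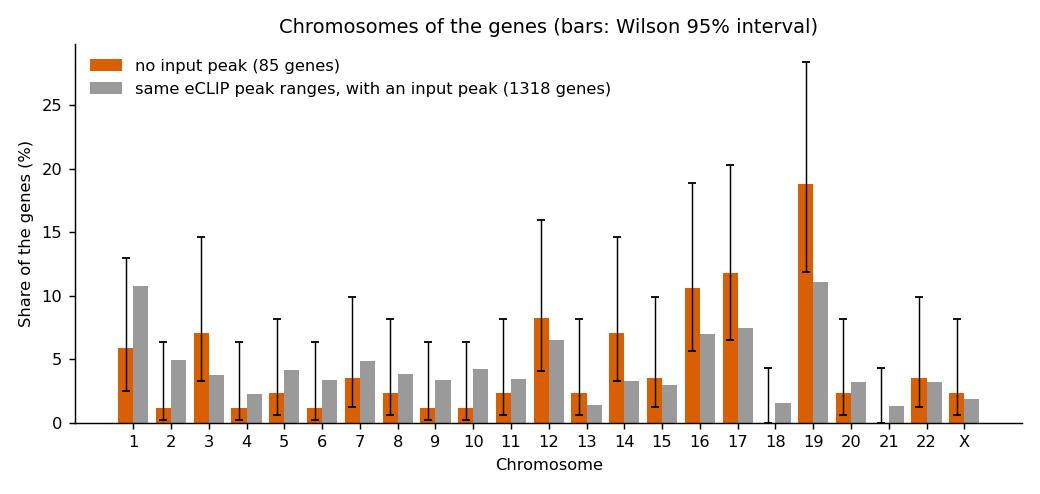
Share of genes on each chromosome (y axis, percent) for the 85 genes with no input peak (orange, Wilson 95% intervals) and the 1318 comparison genes (grey). Chromosomes 19, 17 and 16 hold the most genes of the set, at 18.8%, 11.8% and 10.6%, against 11.1%, 7.44% and 6.98% of the comparison genes.

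Few of the genes were neighbours. Apart from the 2 identifiers with the same peaks, 3 pairs lay within 100 kb of each other: chr14:50110565-50154578 with chr14:50254538-50315340, chr16:1402632-1411860 with chr16:1496640-1524853, and chr16:89884674-89935589 with chr16:90016130-90033622. The gaps were 99959, 84779 and 80540 bases.

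The span of eCLIP replicate 1 peaks ran from 7.46 to 162 kb, with a median of 26.5 kb and quartiles of 17 and 46.7 kb. The comparison genes had a median of 32.1 kb and quartiles of 21.0 and 50.6 kb. Spans under 20 kb made up 32.9% (23.9 to 43.5) of the set and 22.1% (19.9 to 24.4) of the comparison genes. Those of 100 kb or more made up 4.71% (1.85 to 11.5) and 7.44% (6.14 to 8.98). The comparison genes had more peaks each, at a median of 37.0 against 29. Within classes of equal peak number the median spans were close. They were 21.5 and 20.01 kb for 20 to 29 peaks, 28.2 and 28.9 kb for 30 to 39, and 48.9 and 44.1 kb for 40 to 59.

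Peak density ran from 0.196 to 3.45 peaks per kb, with a median of 1.12 against 1.17 in the comparison genes. Peaks of eCLIP replicate 1 covered between 0.485% and 10.6% of a span, with a median of 3.47%. On chromosomes 16 and 19 (9 and 16 genes of the set), median density was 1.12 per kb on each. The comparison genes there had 1.38 and 1.44. On chromosome 17 (10 genes of the set) it was 1.58 against 1.30. On the other chromosomes it was 1.08 against 1.07. The medians on chromosomes 16, 17 and 19 rest on few genes, and the differences were not tested. Across the 85 genes, density and mean reads per peak of the same library rose together (Spearman's rho 0.725), as they did in the comparison genes (0.784). Both measures come from 1 library and share its depth.

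The widest span lay on chromosome 5. The plus-strand span chr5:122182110-122343767 measured 162 kb in eCLIP replicate 1 and held 45 and 3 peaks. The plus-strand span chr22:32152147-32302548 measured 148 kb and held 29 and 7 peaks, at the lowest coverage of the set, 0.485%. Next came 3 plus-strand spans on chromosome 3: chr3:51584066-51697597 with 51 and 4 peaks, chr3:20081664-20192572 with 42 and 4, and chr3:135969237-136055450 with 26 and 4.

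At the other end, the plus-strand span chr19:1905958-1913413 measured 7.46 kb and held 22 and 7 peaks. The plus-strand span chr16:1402632-1411860 measured 9.23 kb, with 28 and 5 peaks. Spans of 10.4 to 10.8 kb were chr17:53029953-53040378 (minus, 20 and 4 peaks), chr19:10812809-10823418 (plus, 22 and 7) and chr17:43228089-43238855 (minus, 27 and 5). By density the highest was the plus-strand span chr17:27717440-27731067, at 3.45 peaks per kb. After it came chr16:1402632-1411860, then chr12:9555789-9567231 on the minus strand, chr19:1905958-1913413, and chr12:6651234-6664947 on the minus strand.

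The peaks themselves held few reads in both libraries. In eCLIP replicate 1 a peak of the set had a median of 4.00 reads and a mean of 5.55. For eCLIP replicate 2 the median was 3.00 and the mean 4.36. Peaks at the minimum of 3 reads made up 28.0% (26.3 to 29.7) and 51.2% (46.4 to 56.1). In eCLIP replicate 1, 7.21% (6.29 to 8.25) of the peaks had over 10 reads, against 12.6% (12.3 to 12.9) in the comparison genes. In eCLIP replicate 2 the shares were 3.48% (2.09 to 5.76) and 4.25% (3.81 to 4.74), and their intervals met. The gap in eCLIP replicate 1 was widest among genes with 20 to 29 peaks, at 6.34% (5.06 to 7.92) against 20.1% (19.3 to 20.9). For 30 to 39 peaks it was 10.8% (8.69 to 13.3) against 13.8% (13.2 to 14.5), and for 40 to 59 it was 5.41% (4.08 to 7.13) against 9.37% (9.03 to 9.72). The intervals count each peak as independent, although peaks of a gene share a transcript. They cover counting error only, and differences between the gene sets were not tested. The comparison genes were also chosen by having an input peak. Mean reads per eCLIP replicate 1 peak of a gene had a median of 4.90 in the set and 5.44 there, and reached 14.8 and 708. The part of that choice in the gap was not tested.

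The most reads in any peak of the set were 67, at chr12:9557190-9557252 on the minus strand in eCLIP replicate 1. An eCLIP replicate 2 peak of 8 reads overlapped it. In the same gene, peaks of 44, 42 and 31 reads in eCLIP replicate 1 met no peak of eCLIP replicate 2. No peak of the set had a deposited p-value of 0, out of 2677 in eCLIP replicate 1. The comparison genes had 10 such peaks among 49614, too rare for a difference to be read.

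Positions were not used to choose the genes. Of the 402 peaks of eCLIP replicate 2, 94 (23.4%, 19.5 to 27.8) overlapped a peak of eCLIP replicate 1 by at least 1 base on the same strand. An interval of the same width set at every possible position of the span would overlap in 7.58% of positions, so the observed number was 3.09 times that. With positions limited to 10 kb on either side it was 2.76 times. In the comparison genes the overlap was 30.3% (29.3 to 31.4), or 3.53 times the share of positions, and 3.20 times within 10 kb. Over all 3179 genes with an input peak that met the eCLIP limits it was 33.3% (32.8 to 33.8), or 3.50 times, and 2.79 times within 10 kb. Within 10 kb the ratio of the set was thus near that of all genes with an input peak. These differences were not tested, since peaks of a gene are not independent.

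The shares were also set out by class of peak number, again without a test. For genes with 20 to 29 peaks in eCLIP replicate 1, 18.4% (13.7 to 24.3) of the eCLIP replicate 2 peaks were shared, against 35.9% (33.8 to 38) in the comparison genes. For 30 to 39 peaks the shares were 27.9% (20.2 to 37.2) and 28.8% (26.9 to 30.8). For 40 to 59 peaks they were 28.9% (20.8 to 38.6) and 28.0% (26.5 to 29.5). In the 20 to 29 class the comparison genes also had their largest share of eCLIP replicate 1 peaks with over 10 reads, 20.1%. The part of read number in this was not tested.

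Agreement rose with the reads of a peak in the comparison genes, and no rise was seen in the set. Of eCLIP replicate 2 peaks with 3 reads, 24.3% (18.9 to 30.6) of the set's and 26.8% (25.4 to 28.2) of the comparison genes' were shared. With 4 reads these shares were 21.4% (14.0 to 31.3) and 31.0% (28.7 to 33.4). With 5 to 10 reads they were 22.4% (15.3 to 31.7), from 98 peaks, and 34.6% (32.4 to 36.8). With over 10 reads they were 28.6% (11.7 to 54.6), from 14 peaks, and 46.2% (40.7 to 51.7). Shared and unshared peaks of the set had the same median of 3.00 reads, against 4.00 and 3.00 in the comparison genes. At 14 peaks a rise like that of the comparison genes could not be told from none. With 5 to 10 reads the intervals of the set and of the comparison genes did not meet. That difference was not tested, and peaks of a gene are not independent.

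Peaks that did not overlap were often near. Within 100 bases of a peak of eCLIP replicate 1 lay 40.8% (36.1 to 45.7) of the set's eCLIP replicate 2 peaks, against 47.0% (45.8 to 48.1). Within 1000 bases lay 91.3% (88.1 to 93.7) against 92.8% (92.2 to 93.4). The median distance was 158 bases in the set and 117 in the comparison genes.

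**Figure D4:**
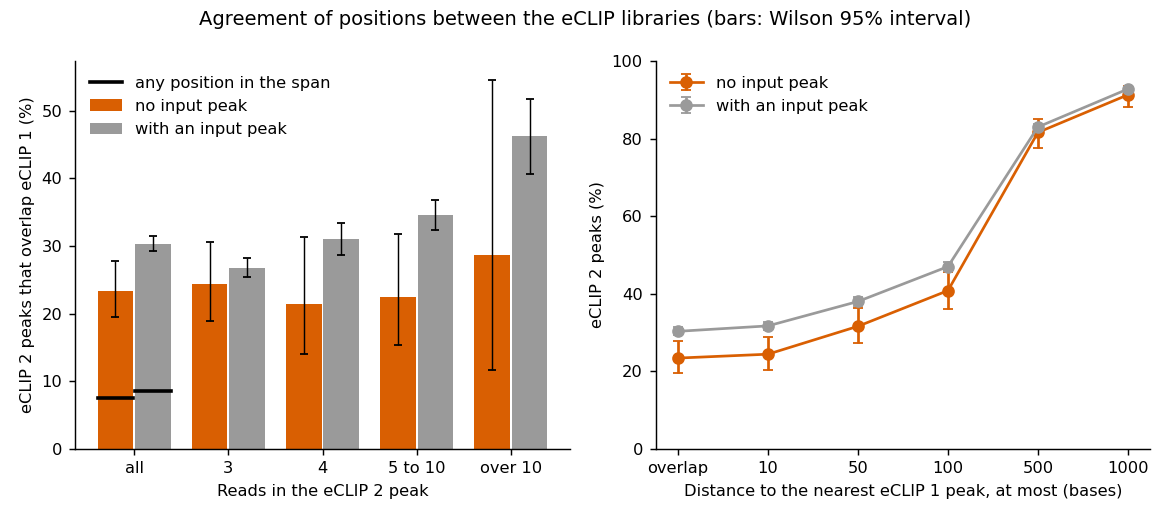
Left, share of eCLIP replicate 2 peaks that overlap eCLIP replicate 1 (y axis, percent) by reads in the peak (x axis), for the 85 genes (orange) and the comparison genes (grey), with Wilson 95% intervals; black lines mark the 7.58% and 8.59% of positions that would overlap. Right, share of peaks within a distance of an eCLIP 1 peak (x axis, bases, uneven steps), which reaches 91.3% and 92.8% at 1000 bases.

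Gene by gene, 28 of the 85 had no shared position, 35 had 1, 10 had 2, 9 had 3 and 3 had 4. At least 1 was found in 67.1% of the set and 72.5% of the comparison genes. The comparison genes had more eCLIP replicate 2 peaks each, at a median of 5.00 against 4.00, and so more that could be shared. The percentages were not adjusted for this. In 1 gene every eCLIP replicate 2 peak was shared, 3 of 3, at chr16:90016130-90033622 on the plus strand.

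The gene with most eCLIP replicate 2 peaks was ENSG00000266111.1, on the plus strand at chr17:27717440-27731067. It held 47 and 13 eCLIP peaks, or 0.981 and 3.10 per 10000, and 0 in both inputs. Of its 13 eCLIP replicate 2 peaks, 4 were shared, where 2.60 would be at any position of this densely covered span. All 13 of these peaks, and 41 of the 47 in eCLIP replicate 1, were also listed under another identifier, which had 14 input peaks outside the span. The nearest same-strand input peak was 1605 bases away.

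ENSG00000204991.6, on the plus strand at chr16:89884674-89935589, held 57 and 10 eCLIP peaks, or 1.19 and 2.39 per 10000. None of these was listed under another identifier. It shared 4 of the 10 positions, against 0.730 expected at any position. Of its eCLIP replicate 1 peaks, 42 lay in the second and the third of 5 equal parts of the span, as did 7 of those of eCLIP replicate 2. The nearest same-strand input peak lay 8385 bases away.

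With 10 peaks each in eCLIP replicate 2, minus-strand genes on chromosomes 14 and 7 differed in agreement. The gene at chr14:35393826-35450949 had 38 peaks in eCLIP replicate 1 and shared 3 positions, against 0.353 expected. The gene at chr7:129658413-129690242 had 36 and shared none, against 0.584 expected. Its nearest same-strand input peak was 90551 bases away.

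With 8 peaks each in eCLIP replicate 2 came 4 genes. At chr3:107762955-107799008 on the minus strand, eCLIP replicate 1 listed 44 peaks, with 26 of them in the 3′-most of 5 equal parts. There too lay 6 of the 8 from eCLIP replicate 2, and 3 of the 8 positions were shared. At chrX:23852208-23923243 on the minus strand, none of 8 was shared. Its eCLIP replicate 1 peaks had at most 6 reads and spanned 40.8 kb of a 71.0 kb span, whose ends were set by eCLIP replicate 2 peaks. At chr11:1592770-1612972 (plus) and chr1:156005543-156023173 (minus), with 24 and 23 peaks in eCLIP replicate 1, 1 of 8 was shared. Of the genes with 7 peaks each, the ranking took those with most eCLIP replicate 1 peaks. These were chr14:50254538-50315340 (minus, 59 peaks in eCLIP replicate 1, the most of the set) and chr17:33426955-33446762 (minus, 31 peaks). Each shared 1 position. In the latter, all 7 peaks were also listed under another identifier, which had 8 input peaks.

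**Figure D5:**
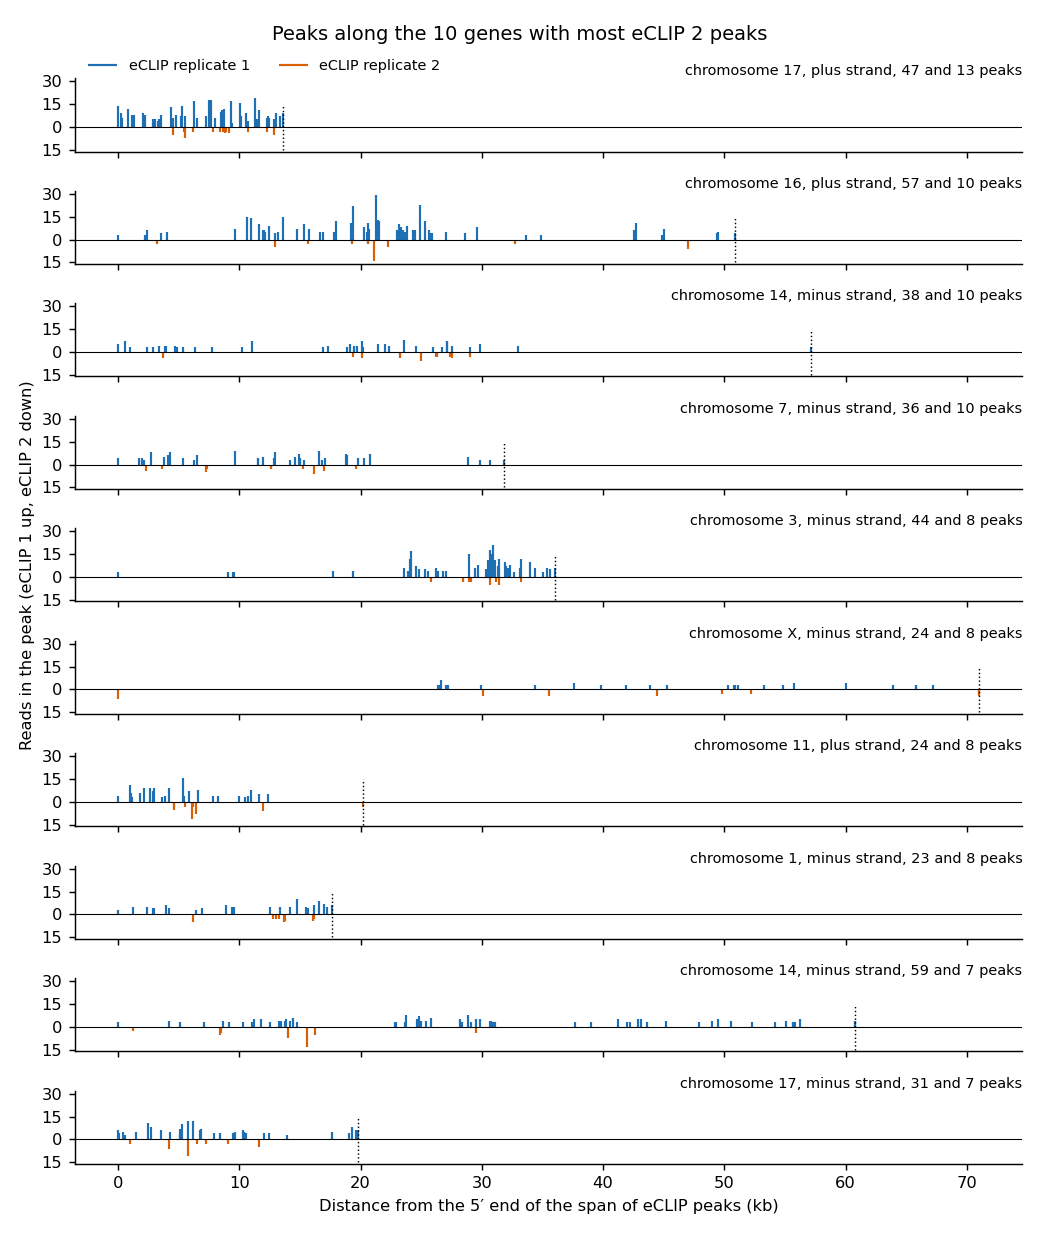
Peaks along the 10 genes with most eCLIP replicate 2 peaks: distance from the 5′ end of the span (x axis, kb) against reads in the peak (y axis), with eCLIP replicate 1 drawn upward in blue and eCLIP replicate 2 downward in orange. The dotted line marks the 3′ end of the span; the chromosome 17 plus-strand gene is filled with peaks over 13.6 kb, and the chromosome X gene has none over 6 reads.

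On the plus strand at chr19:53059410-53089943, 4 of 5 eCLIP replicate 2 peaks were shared, against 0.276 expected. All 5, and 21 of its 30 peaks in eCLIP replicate 1, were also listed under another identifier with 2 input peaks. Also among the genes with most shared positions were chr14:50110565-50154578 with 3 of 6, chr12:9555789-9567231 with 3 of 6 and chr16:75477167-75496735 with 3 of 5, all on the minus strand. In the last of these, all 5 peaks were listed under another identifier, with 1 input peak. The 2 identifiers at chr19:18981952-19006884 shared the same 3 of 7.

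The shared position with most eCLIP replicate 2 reads was chr16:86568508-86568547 on the minus strand, with 24 reads (deposited p 5.05e-25). The eCLIP replicate 1 peak there was 4 bases wide and had 3 reads. Second was chr22:45572929-45572968 on the plus strand, with 20 reads against 5 in eCLIP replicate 1. An eCLIP replicate 2 peak of 12 reads touched it on its 5′ side and met no peak of eCLIP replicate 1. At both places the shorter list thus held the stronger peak.

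The next 3 positions had like reads in both libraries. They were chr16:90018846-90018898 (plus, 12 reads against 13), chr17:33440961-33441051 (minus, 11 against 12) and chr16:1411066-1411108 (plus, 9 against 8). The first of these overlapped the eCLIP replicate 1 peak by 3 bases only. Position 50093279 to 50093295 on the minus strand of chromosome 19 had the same 9 reads as the last, against 11. Among all eCLIP replicate 2 peaks of the set, the second and the fourth by reads were not shared: 21 reads at chr12:113615745-113615828 (minus) and 17 at chr1:67429535-67429571 (plus). They lay 184 and 1055 bases from the nearest eCLIP replicate 1 peak of the gene.

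Along the span, the peaks of the set lay much as those of the comparison genes. The first of 10 equal parts, from the 5′ end, held 14.0% (12.7 to 15.3) of the set's eCLIP replicate 1 peaks and 14.3% (14.0 to 14.6) of the comparison genes'. In eCLIP replicate 2 it held 13.2% (10.2 to 16.8) and 13.3% (12.5 to 14.1). The last part held 11.7% (10.5 to 12.9) and 13.3% (13.0 to 13.6) in eCLIP replicate 1, where the intervals did not meet, and 8.96% (6.54 to 12.1) and 11.9% (11.2 to 12.6) in eCLIP replicate 2, where they did. In the seventh part of eCLIP replicate 1 the intervals did not meet either, at 9.94% (8.86 to 11.1) against 8.56% (8.32 to 8.81). These intervals too count each peak as independent, and the differences were not tested. The outermost peaks define the span, which raises both end parts in every gene.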

How the data were processed

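FLAG-ZFR eCLIP and size-matched input libraries, 2 of each, were grouped by their titles. The submitters' processing notes name cutadapt, STAR, SAMtools and the hg19 build. Versions, the peak caller and the annotation were not given in the sources used here. For each library the authors deposited a peak list, with a p-value and a score per peak, and other columns giving interval, strand and identifier. The deposited score was not used. The whole number ending a peak's name was read as its reads, which the files do not state. None (0) of the 17764 identifiers matched the 59792 genes of the RefSeq table (GRCh38.p14), so no names and no sequences are given.

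Lines were counted per gene identifier without its version. Expected numbers from list length are exact multinomial sums, and overlap at any position was counted exactly, on Python 3.11.15; the functions were tested on simulated data. Shares carry Wilson 95% intervals from SciPy 1.17.1. Peak shares were fitted with limma 3.58.1 in R 4.3.3 (lmFit, eBayes with trend, two-sided) on log2(peaks per 10000 + 0.5), for 8914 genes with at least 10 summed peaks, with Benjamini-Hochberg adjustment. The depth of the libraries is unknown. Any p-value reflects the scatter among these 4 libraries alone, and that scatter may be technical. Members and settings were chosen with earlier results of these data known. Genes named are the 10 with most eCLIP replicate 2 peaks, the 10 with most shared positions, the 5 widest, 5 narrowest and 5 densest, and the 5 shared positions with most eCLIP replicate 2 reads; others named were chosen after their values were seen. The gene lists by symbol and the cell line's markers could not be applied without names.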

Additional observations from a re-analysis of the deposited data

How the results depend on the processing

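The set depends on the limits put on it. It numbered 85, and 85 again with touching intervals merged, 84 with the identical pair counted once, 76 without peaks listed under several identifiers, and 103 when only same-strand input peaks inside the span counted. With peaks at a p-value of at most 0.01 it held 111 genes, of which 7 were among the 85; at most 0.001, 134 genes and 0 of the 85; with at least 5 reads, 291 genes and 4 of the 85. In these settings the limits on eCLIP peaks were kept while the lists were thinned. Thinning cannot give a gene an input peak, so genes of the 85 could leave only by falling below those limits. Their loss therefore says nothing about input peaks. Lists of equal length, each cut to its 11204 peaks of lowest p-value, gave 0. The limit of 20 peaks was kept although eCLIP replicate 1 fell from 479308, so this 0 was nearly certain beforehand. Limits of 10 and 2 peaks gave 225, of 40 and 5 gave 9, and 1 allowed input peak gave 184. Leaving out 1 library gave 136 (input 2) to 1131 genes (input 1). The shared positions were 19.4% when the overlap had to cover 50% of the eCLIP 2 peak, 31.6% within 50 bases and 16.6% at a p-value of at most 0.01 in both; in the other 4 alternatives they stayed between 22.7% and 23.3%. Same-strand input peaks in the spans were at 0 and could not rise, since both alternatives counted only a part of the same peaks. The 11 on the opposite strand became 9 with spans of eCLIP replicate 2 peaks only. At an input p-value of at most 0.001 they became 1. The libraries share only a number, with no stated pairing (correlation of same-numbered deviations across genes 0.40). In both groups library 1 had the longer list, so this correlation cannot tell a pairing from list length. With the library number as a replicate block limma called 4 genes in place of 0, none of the 85. Leaving out 1 library gave 0 to 695 genes by limma; the 695, with 64 of the 85, came without eCLIP replicate 2, which leaves 1 eCLIP library assumed to vary like the inputs. Without input 1 it called 5 and without input 2 it called 1. Without eCLIP replicate 2 the fit set eCLIP replicate 1 against the inputs, over 8914 genes. The 85 were chosen by that same contrast, so nothing is read from how many of them were called. The causes were not tested.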
